A study of Mus musculus with 53 samples.

Results

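The mitochondrial respiratory chain genes were followed in 4 regions of the mouse brain, with and without a transgene for spinocerebellar ataxia type 3 (SCA3). They were taken from the table of read counts by symbol: every gene whose symbol starts with Nduf, Uqcr or Atp5, the genes Sdha, Sdhb, Sdhc and Sdhd, Cyc1 and Cycs, and the Cox4 to Cox8 subunit genes. This gave 83 of the 12372 genes in the table. The 83 genes comprised 41 of complex I (7 core subunits, 27 accessory subunits and 7 assembly factors), 4 of complex II, 9 of complex III, cytochrome c, 11 of complex IV, 14 of complex V and 3 related genes (Cox7a2l, Atp5s and Atp5sl). They lie on 19 chromosomes, and no gene encoded by mitochondrial DNA was among the genes tested, so the nuclear-encoded part of the chain is described here.

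The respiratory chain sits in the inner mitochondrial membrane. Complex I (NADH dehydrogenase) and complex II (succinate dehydrogenase) pass electrons to ubiquinone, complex III (the cytochrome bc1 complex) passes them on to cytochrome c, and complex IV (cytochrome c oxidase) passes them to oxygen. Complexes I, III and IV pump protons, and complex V (ATP synthase) uses the proton gradient to make ATP, on which neurons depend for ion transport and synaptic transmission. Most subunits are encoded in the nucleus, translated in the cytosol and imported into the mitochondrion.

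The libraries came from 14 male mice aged to 17.5 months. The 8 wild-type mice were C57BL/6. The 6 SCA3 mice were hemizygous MJD84.2 transgenics, in which a human ATXN3 copy with a long CAG repeat, under its own regulatory sequence, is present beside the mouse gene, and its expression is not limited to a cell type. No mouse was treated. RNA was sequenced from the brainstem (8 wild-type, 6 SCA3), cerebellum (7 and 6), cortex (7 and 6) and striatum (8 and 5), giving 53 libraries, with the regions of a mouse dissected from the same brain.

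Library totals ran from 31680939 to 76703758 counts, and RNA integrity numbers from 5.7 to 9.0. The mouse Atxn3 gene, to which reads of the human transgene may align in part, had 46.2 ± 4.24 CPM (counts scaled to a common library size, mean ± SD) in wild-type striatum (n = 8) and 58.0 ± 4.04 in SCA3 striatum (n = 5), 43.9 ± 2.19 (n = 7) and 48.4 ± 2.16 (n = 6) in cortex, 34.4 ± 2.77 (n = 7) and 37.1 ± 2.11 (n = 6) in cerebellum and 43.4 ± 2.42 (n = 8) and 43.6 ± 4.45 (n = 6) in brainstem. It was called in striatum (edgeR, FDR = 0.00012), with FDR from 0.98 to 1.0 elsewhere. Region markers matched the labels for the cerebellum (8 of 10 granule cell and 8 of 10 Purkinje cell markers in the table, both highest there). Projection neuron markers of the striatum (12 of 13 in the table) were highest in striatum on average, but the lowest striatal library (mouse 7267059, mean log2 CPM 7.60) lay below 7 of the 13 cortex libraries. The table held 1 of the 10 hindbrain markers, so the brainstem label could not be checked that way. Cortex libraries differed widely in the projection neuron markers (5.97 to 8.5). Cortical glutamatergic markers (6 of 10 in the table) also overlapped, with 5.74 to 7.85 in cortex and 3.50 to 6.59 in striatum. Wild-type striatal libraries differed widely in thalamus markers (11 of 12 in the table): their summed level ran from 386 to 3606 CPM, against 374 to 753 CPM in SCA3 striatum, and the mean log2 CPM was above 7 in 2 wild-type libraries, those of mice 7267058 and 7267059. These were bulk tissue samples, in which fewer cells of a type and less RNA per cell cannot be told apart.

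Levels of different genes were compared per exon length, as RPKM (CPM divided by the exon length in kilobases). In wild-type brainstem (n = 8) the most abundant transcripts were Atp5b, the catalytic beta subunit of ATP synthase, at 715.9 ± 41.1 RPKM, Cox4i1, a regulatory subunit of cytochrome c oxidase, at 508 ± 42.4, Atp5a1, the ATP synthase alpha subunit, at 404.4 ± 24.0, and Cox8a, a small oxidase subunit, at 396 ± 37.1. Sdha, the flavoprotein of succinate dehydrogenase, had 219.3 ± 9.76 RPKM and the other complex II subunits less, with Sdhb at 101.9 ± 7.65 and the membrane anchor Sdhc at 26.9 ± 0.872. The complex I core subunits Ndufs1 and Ndufv1 had 61.9 ± 2.56 and 100.5 ± 7.02 RPKM. The lowest values were those of the acyl carrier protein Ndufab1 (4.44 ± 0.837 RPKM) and of Cycs, cytochrome c itself (4.98 ± 0.307 RPKM). Both have near-identical copies elsewhere in the genome, and only uniquely aligned reads were counted, so these values and that of the c-ring subunit gene Atp5g1 (7.50 ± 0.782 RPKM) are uncertain. The exon length used for Atp5g1 (4778 bases) also exceeds the span of the gene (chr11:96072793-96075694). Its RPKM is therefore not comparable with that of its paralog Atp5g3 (355.6 ± 31.7 RPKM, 724 bases). In wild-type brainstem the mean log2 CPM was 5.16 for Atp5g1 and 8.0 for Atp5g3. Atp5b was also the most abundant in the other wild-type regions, with 665.2 ± 40.5 in cerebellum (n = 7), 587.3 ± 47.6 in cortex (n = 7) and 587.5 ± 83.4 RPKM in striatum (n = 8).

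As a group, the 83 genes were short and steadily expressed. Their median exon length was 955 bases, against 3381 bases over the 12323 genes with a length, and their median GC content was 51.0% against 50.5%. The median mean level was 68.7 CPM against 37.3 CPM over all genes, and the median SD between libraries of a group was 0.122 on the log2 scale against 0.162. Exons of 24 of the 83 genes overlap exons of another gene (for example Ndufb5 and Mrpl47, or Cox4i1 and Emc8), and since counting did not use strand, reads of such a pair cannot be told apart. After the group means were removed, the median correlation of a gene with the mean of the other members over the 53 libraries was 0.68 (62 of 83 above 0.5). This is a description, since the points share library, depth and mouse. Ndufaf7, a methyltransferase that acts in complex I assembly, was the 1 gene below 0 (-0.16).

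Promoter sequences, from 250 bases before to 50 bases after the annotated start, were at hand for 67 of the 83 genes (RefSeq, GRCm38.p6). Several factors that act on respiratory genes bind near the start, among them NRF1, ETS factors (such as GABP) and YY1. The NRF1 core (GCATGCGC, either strand) was in 12 of 67 windows (17.9%), against 5.56% of 9474 genes in the table and 2.80% of all 27025 promoters. The ETS core (CCGGAAG, either strand) was in 16 (23.9%), against 17.7% and 9.12%, and the YY1 core (AAGATGGC, either strand) in 8 (11.9%), against 4.81% and 2.88%. At least 1 of the 3 was in 31 windows (46.3%), against 25.7% of the genes in the table. The windows of 4 genes on which the results below turn are given 5′ to 3′ on the strand of the gene, with the matched letters in capitals. Ndufb7 (chr8:83566508-83566807, plus strand) and Atp5o (chr16:91931581-91931880, minus strand) were the genes with FDR below 0.05 for SCA3 in the striatum. Ndufaf2 (chr13:108158576-108158875, minus strand) had the largest regional difference, and Cox6a1 (chr5:115348909-115349208, minus strand) was one of the complex IV genes that were higher in cortex. The Ndufb7 window held the ETS core, and the Cox6a1 window held the NRF1 core on both strands, overlapping itself, and the ETS core on the other strand. The windows of Atp5o and Ndufaf2 held none of these letters. A match is a description and not a binding site.
Ndufb7: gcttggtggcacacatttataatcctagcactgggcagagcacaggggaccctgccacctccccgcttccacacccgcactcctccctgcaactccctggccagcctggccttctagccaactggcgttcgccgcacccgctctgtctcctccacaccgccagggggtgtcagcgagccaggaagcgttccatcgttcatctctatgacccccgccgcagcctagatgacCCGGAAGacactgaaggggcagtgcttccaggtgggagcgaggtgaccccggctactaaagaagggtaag
Atp5o: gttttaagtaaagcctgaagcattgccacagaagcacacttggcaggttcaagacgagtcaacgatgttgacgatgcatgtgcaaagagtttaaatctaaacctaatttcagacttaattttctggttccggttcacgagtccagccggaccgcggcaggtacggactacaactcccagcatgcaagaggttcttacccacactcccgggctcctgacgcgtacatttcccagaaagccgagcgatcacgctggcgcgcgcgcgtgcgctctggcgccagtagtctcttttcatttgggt
Ndufaf2: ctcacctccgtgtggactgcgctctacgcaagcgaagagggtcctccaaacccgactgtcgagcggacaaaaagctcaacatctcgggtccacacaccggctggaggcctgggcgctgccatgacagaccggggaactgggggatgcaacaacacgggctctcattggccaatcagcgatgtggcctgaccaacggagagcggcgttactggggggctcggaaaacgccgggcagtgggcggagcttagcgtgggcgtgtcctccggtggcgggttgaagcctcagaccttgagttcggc
Cox6a1: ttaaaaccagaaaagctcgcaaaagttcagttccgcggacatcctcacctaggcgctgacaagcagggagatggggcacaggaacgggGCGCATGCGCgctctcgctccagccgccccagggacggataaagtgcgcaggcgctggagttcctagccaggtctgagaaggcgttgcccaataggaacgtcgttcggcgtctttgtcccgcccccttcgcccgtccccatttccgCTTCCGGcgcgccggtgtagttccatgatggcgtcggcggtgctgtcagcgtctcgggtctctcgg

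In wild-type mice, the respiratory chain genes were highest in the brainstem. The mean log2 CPM over the 83 genes was 6.29 ± 0.07 in brainstem (n = 8), 6.10 ± 0.11 in cerebellum (n = 7), 6.11 ± 0.11 in cortex (n = 7) and 6.08 ± 0.09 in striatum (n = 8). Their share of all counts was 1.08 ± 0.0467% in brainstem and 0.978 ± 0.0721%, 0.898 ± 0.0551% and 0.897 ± 0.0696% in the other regions. Individual brainstem libraries ran from 6.17 to 6.37 and overlapped with the highest libraries of the other regions, the highest of which reached 6.27 in both cerebellum and striatum.

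**Figure D1:**
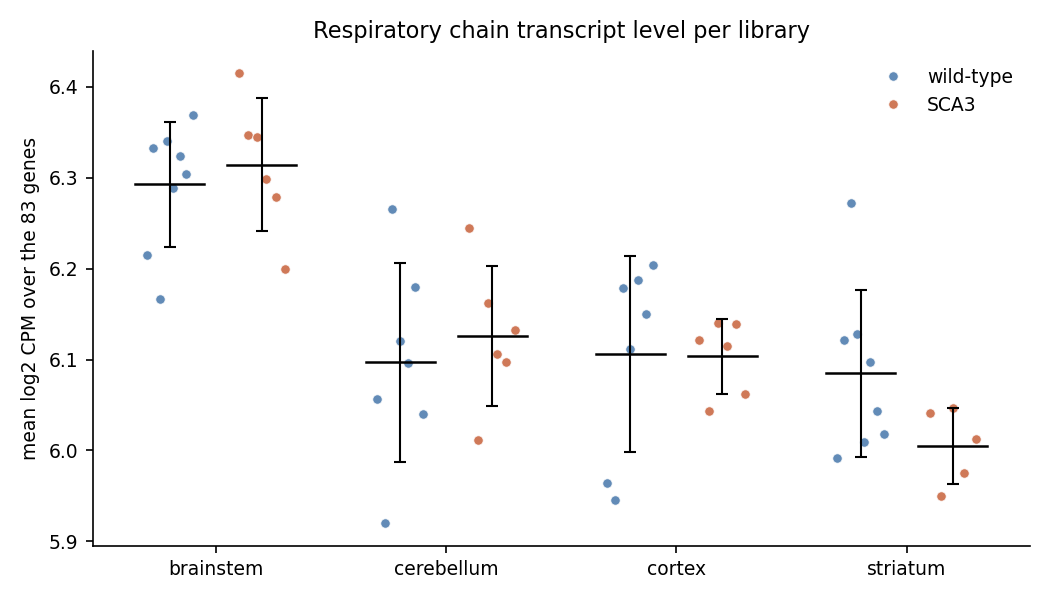
Mean log2 CPM over the 83 respiratory chain genes in each library (points), by brain region and genotype, with the group mean (horizontal line) and SD (error bars); the axis does not start at 0. Brainstem libraries of both genotypes sit between 6.17 and 6.41, and the SCA3 striatal libraries sit between 5.95 and 6.05.

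Gene by gene, 60 of the 83 had higher transcript levels in brainstem than the mean of the other 3 regions and 4 had lower levels (edgeR likelihood ratio test, FDR below 0.05). Over all genes tested, 34.1% were higher and 36.0% lower in that comparison, so 72.3% of the respiratory chain genes stood against 34.1%. The median log2 difference of the 83 genes was 0.207, against -0.011 over all genes. For 37 genes (44.6%, against 14.6% of all genes) the brainstem was higher than each other region in its own comparison. The brainstem was the region with the highest mean log2 CPM for 60 genes (72.3%, against 28% of all genes), the cerebellum for 10 (12.0% against 33.7%), the cortex for 7 (8.43% against 22.4%) and the striatum for 6 (7.23% against 16.0%). The range over regions was nevertheless small, with a median of 0.30 on the log2 scale against 0.58 over all genes, and levels differed among the 4 regions for 71 of 83 genes where 93.0% of all genes did.

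The brainstem excess was found in each complex, where 34.1% of all genes were called higher. It was seen in 6 of 7 core and 20 of 27 accessory subunits of complex I, 4 of 4 subunits of complex II, 5 of 9 of complex III, 8 of 11 of complex IV and 11 of 14 of complex V. Of the assembly factors 3 of 7 were higher and 1 lower, a share near that of all genes. Expressed as the mean log2 CPM of a complex, the brainstem exceeded the mean of the other regions by 0.204 for complex I, 0.230 for complex II, 0.125 for complex III, 0.197 for complex IV and 0.195 for complex V, where the SD between libraries of a group was 0.067, 0.065, 0.095, 0.104 and 0.079. From summed CPM the complex III difference was 0.190 and that of complex IV 0.177, so the order of the complexes depended on the scale. Cycs was 0.19 ± 0.06 higher (log2 difference ± SE, FDR = 0.0045).

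**Figure D2:**
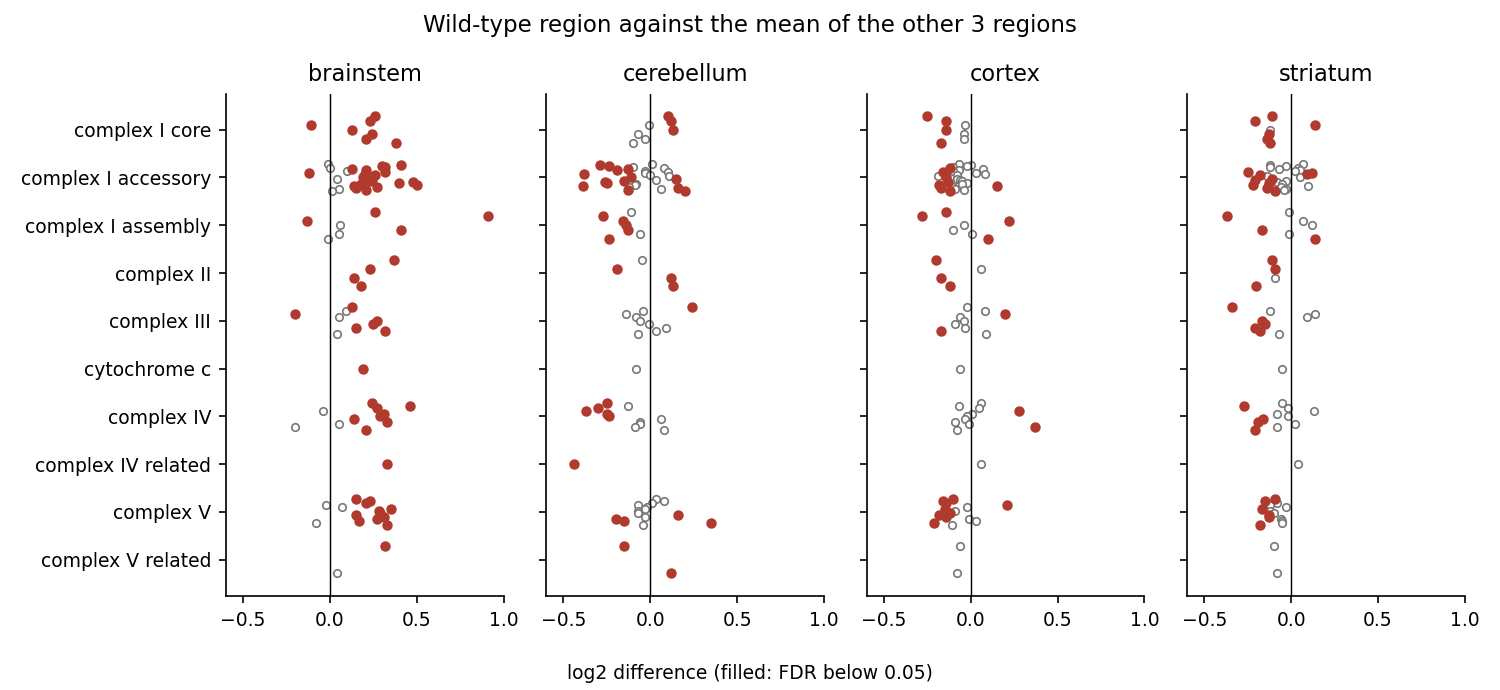
Log2 difference between each wild-type region and the mean of the other 3 for the 83 genes, grouped by complex (filled points, FDR below 0.05). In brainstem 60 filled points lie to the right of 0 and 4 to the left, whereas in the other regions most filled points lie to the left.

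The gene with the largest regional difference was Ndufaf2, an assembly factor that associates with a late intermediate of complex I. Wild-type brainstem libraries had from 22.1 to 36.2 CPM (median 29.0), cerebellar libraries from 12.5 to 20.6 (median 14.2), cortical libraries from 13.9 to 17.4 (median 15.7) and striatal libraries from 12.6 to 20.4 (median 14). No brainstem library overlapped with another region, and the log2 difference was 0.91 ± 0.08 (FDR = 1.5e-27). Sdha, which holds the succinate binding site of complex II, had from 593.3 to 681.4 CPM in brainstem (median 636.4) and from 439.1 to 557.3 across the other regions, with no overlap and a log2 difference of 0.37 ± 0.04 (FDR = 3.3e-24). The accessory subunits Ndufb8 and Ndufb5 had differences of 0.50 ± 0.07 and 0.48 ± 0.05, and Cox5a, a matrix-side subunit of cytochrome c oxidase, of 0.46 ± 0.09. Exons of Ndufb5 overlap those of Mrpl47, and exons of Ndufb8 those of another gene on the same strand. Cox5a overlapped between regions, with 108.4 to 173.8 CPM in brainstem and 69.4 to 130.4 in striatum. Other central subunits had differences of 0.26 ± 0.04 for Ndufs1, 0.21 ± 0.04 for Ndufv1, 0.24 ± 0.06 for Cox4i1, 0.23 ± 0.05 for Atp5b and 0.15 ± 0.04 for Atp5a1.

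Genes that went the other way in brainstem were Uqcr11, a small subunit of complex III (-0.20 ± 0.08, FDR = 0.019), the assembly factor Ndufaf3 (-0.13 ± 0.06, FDR = 0.037), the accessory subunit Ndufa7 (-0.12 ± 0.05, FDR = 0.031) and the core subunit Ndufs3 (-0.11 ± 0.05, FDR = 0.029). The call of Ndufaf3 held in 21 of 29 alternative settings (FDR up to 0.15), and was lost without mouse 9082857, 9083371, 9083372 or 9083375. That of Ndufa7 held in 23 of 29 (FDR up to 0.11), and was lost without mouse 9082857, 9083371, 9083372 or 9083373. Cox8a and Cox6a1 did not pass the test in brainstem, with differences of -0.20 ± 0.10 (FDR = 0.066) and -0.04 ± 0.09 (FDR = 0.73). Cox8a was called lower in 6 of 29 alternative settings, among them without mouse 7267055 (-0.27, FDR = 0.00077). Atp5e, the epsilon subunit of ATP synthase, was level across regions, with 66.7 ± 5.70, 63.8 ± 8.31, 63.9 ± 9.14 and 63.5 ± 3.22 CPM in wild-type brainstem, cerebellum, cortex and striatum.

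In cerebellum, 12 genes were higher and 26 lower than the mean of the other regions (35.3% and 38.4% of all genes), with a median log2 difference of -0.068. The highest was Atp5l, an ATP synthase membrane subunit (0.35 ± 0.07), although at only 5.40 ± 0.593 CPM, against 4.03 to 4.39 in the other regions. Cyc1, the cytochrome c1 heme protein of complex III, was higher by 0.24 ± 0.06 and the accessory subunit Ndufv3 by 0.20 ± 0.04. The genes with the lowest values were the complex IV related gene Cox7a2l (-0.44 ± 0.07), Ndufb9 (-0.39 ± 0.06) and Ndufa8 (-0.38 ± 0.04). Cox7a2l had from 61.0 to 81.2 CPM in cerebellum and from 87.5 to 125.7 in brainstem, without overlap. No gene of complex IV was higher in the cerebellum and 5 of 11 were lower, among them Cox4i1 (-0.25 ± 0.06), Cox6b1 (-0.25 ± 0.06) and Cox6a1 (-0.37 ± 0.10). The mean log2 CPM of complex IV was 0.142 below the other regions, with an SD between libraries of 0.122.

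In cortex, 7 genes were higher and 25 lower (30.6% and 29.0% of all genes), with a median log2 difference of -0.066. The higher genes were led by complex IV subunits. Cox8a had from 160.6 to 357.8 CPM in wild-type cortex (median 294.0) and from 191.6 to 253.2 in brainstem (median 218.1), and its log2 difference was 0.37 ± 0.10 (FDR = 0.00089). Cox6a1 differed by 0.28 ± 0.10 (FDR = 0.0076), with cortical libraries from 118.4 to 246.8 CPM. For both genes the lowest cortical library, that of mouse 7267055, lay below every brainstem library, so the groups overlapped. That library also stood apart in choroid plexus markers (3 of 7 in the table), whose summed level was 1077.6 CPM, where the other wild-type cortex libraries had 20.5 to 91.7 CPM. Without the mouse, Cox8a had a log2 difference of 0.41 and Cox6a1 of 0.32. The third gene was Ndufaf3 (0.22 ± 0.06). The lowest values were those of Ndufaf2 (-0.28 ± 0.09), Ndufs1, an iron-sulfur subunit of the NADH-oxidising arm of complex I (-0.25 ± 0.04), and Atp5l (-0.21 ± 0.07). Sdha was also lower (-0.20 ± 0.04), and 8 of the 14 complex V genes were lower. Without mouse 7267058, 18 of the 83 genes were called in this comparison. In the largest number series alone (mouse numbers starting with 9083, 4 wild-type mice) 12 were called.

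In striatum, 4 genes were higher and 33 lower (27.8% and 27.2% of all genes), with a median log2 difference of -0.090. Ndufs3 (0.14 ± 0.05), Ndufaf7 (0.14 ± 0.03), Ndufa7 (0.12 ± 0.05) and Ndufa8 (0.09 ± 0.04) were the higher genes. Ndufa7 was not called without mouse 7267058, 7267059 or 9082857 (0.10 to 0.12, FDR from 0.059 to 0.085), and in the largest number series alone it had 0.07 (FDR = 0.28) and Ndufs3 0.05 (FDR = 0.48). Ndufaf2 (-0.37 ± 0.09), Cyc1 (-0.34 ± 0.06) and Cox5a (-0.27 ± 0.09) had the lowest values. Cyc1 had from 93.6 to 130.2 CPM in striatum, against 124.9 to 167.2 in cerebellum. The Rieske iron-sulfur protein Uqcrfs1 was lower by a log2 difference of -0.21 ± 0.05, and 5 of the 9 complex III genes were lower in all. Without mouse 9083371, 22 of the 83 genes were called in this comparison.

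Between pairs of wild-type regions, more of the 83 genes differed in pairs with the brainstem than in the others, but the share was near or below that of all genes for 2 of these 3 pairs. It was 49 of 83 for brainstem and cerebellum (59.0%, against 72.6% of all genes), 56 for brainstem and cortex (67.5% against 65.4%) and 60 for brainstem and striatum (72.3% against 64.2%), with 47, 52 and 55 of these higher in brainstem. It was 34 for cerebellum and cortex (41.0% against 69.7%) and 31 for cerebellum and striatum (37.3% against 69.5%), with no common direction (17 and 19 higher in cerebellum). Cortex and striatum differed in 4 genes (4.82%), where 34.4% of all genes differed. Cyc1 (0.24 ± 0.07), Cox8a (0.33 ± 0.13) and Atp5d (0.25 ± 0.09) were higher in cortex and Ndufb10 (-0.14 ± 0.05) was lower, of which Atp5d and Ndufb10 were named after their values were seen. This last count was 1 without mouse 7267058, 2 without mouse 9082857, 8 without mouse 7267059 and 13 in the largest number series alone. It was 10 without the 5 libraries whose thalamus markers (mean log2 CPM) were above 7 in striatum or 6.3 in brainstem. These were the striatal libraries of wild-type mice 7267058 and 7267059 and the brainstem libraries of wild-type mouse 7267055 and SCA3 mice 9083514 and 9083515. Cerebellum and striatum differed in 48 genes with a length and GC correction and replicate block.

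Markers of other cell types also moved with region. Oligodendrocyte markers (10 of 10 in the table) had a mean log2 CPM of 9.02 ± 0.32 in wild-type brainstem, 8.5 ± 0.50 in striatum, 7.28 ± 0.35 in cortex and 7.22 ± 0.29 in cerebellum, and astrocyte markers 7.98 ± 0.23, 7.44 ± 0.26, 7.41 ± 0.15 and 7.67 ± 0.07. In the same order, neuron markers had 9.33 ± 0.1, 8.95 ± 0.13, 9.38 ± 0.17 and 8.82 ± 0.07, and microglia markers 5.28 ± 0.26, 5.39 ± 0.23, 5.17 ± 0.17 and 4.15 ± 0.18. The mean RNA integrity number was 7.24 in wild-type brainstem and 7.48 to 7.84 in the other wild-type groups. With this number as a covariate 65 of the 83 genes were called in brainstem, and 63 among libraries with a number of at least 7, where 64 were called before. The part of the cell type markers in the regional differences was not tested.

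Between SCA3 and wild-type mice, few respiratory chain transcripts differed. In the brainstem, cerebellum and cortex no gene of the 83 passed the test, where 1.92%, 0.0647% and 0.154% of all genes did. In the striatum 2 genes, Ndufb7 and Atp5o, were lower in SCA3 mice. That was 2.41% of the 83 genes, where 7.54% of all genes were called and 5.47% were called lower, so the share was under the background. In the main fit no gene exceeded 0.25 on the log2 scale in either direction in any region. Some did in alternative settings. Atp5e reached -0.42 in brainstem and -0.36 in cortex, and had -0.33 in striatum without mouse 7267054. The precision given next is that of the main fit. The median SE was 0.07, the 95% interval reached a median of 0.14 to either side, and in each region all 83 intervals lay within ± 0.5, so larger differences than this were not seen at this precision.

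**Figure D3:**
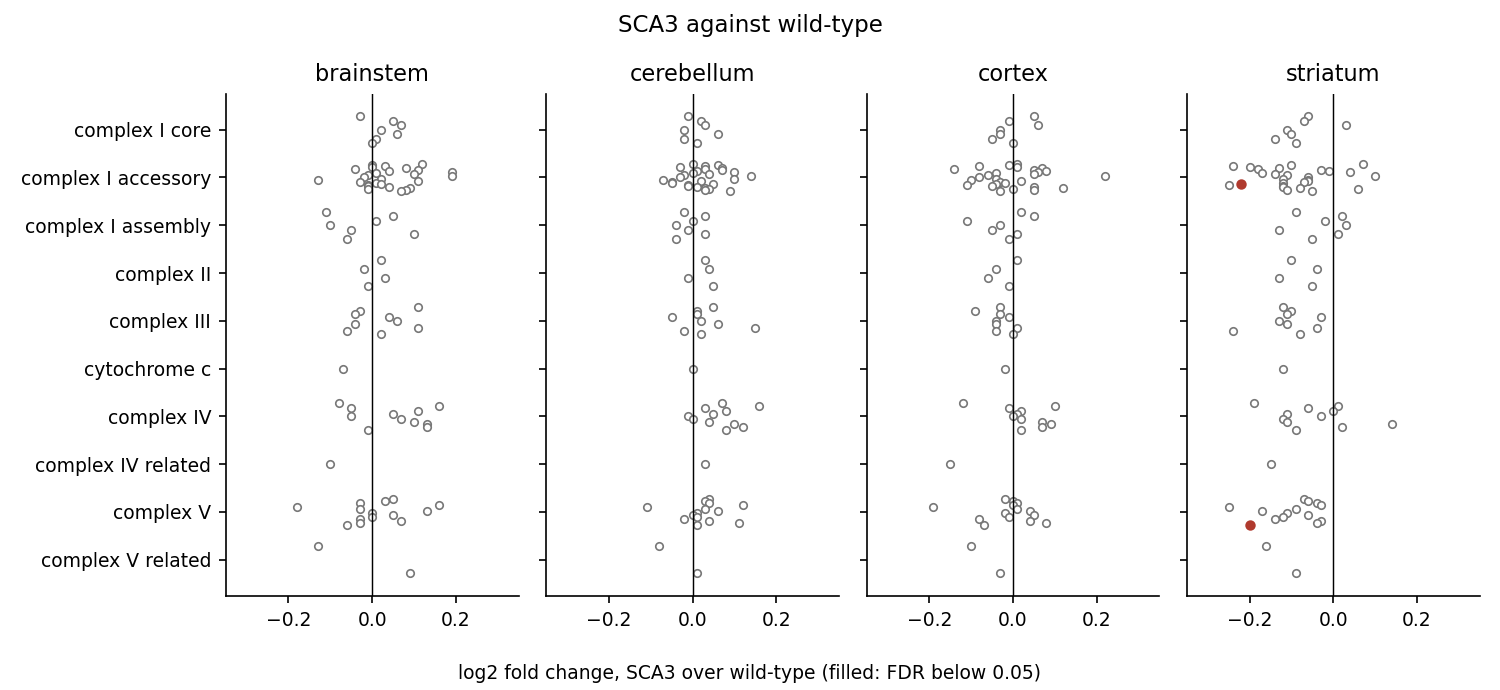
Log2 fold change of SCA3 over wild-type mice for the 83 genes in each region, grouped by complex (filled points, FDR below 0.05). The filled points are Ndufb7 (-0.22) and Atp5o (-0.20) in striatum, where 72 of 83 points lie below 0.

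Ndufb7 encodes an accessory subunit on the intermembrane side of complex I. Its 5 SCA3 striatal libraries had 29.9, 30.9, 32.5, 33.4 and 34.0 CPM. The 8 wild-type libraries ran from 34.1 to 45.0 CPM with a median of 35.0, so the groups did not overlap, although 5 wild-type libraries lay between 34.1 and 35.1, just above the SCA3 libraries. The log2 fold change was -0.22 ± 0.07 (edgeR, FDR = 0.033). In the other regions the group means were close, at 42.5 and 43.1 CPM in brainstem, 37.0 and 38.3 in cerebellum and 37.7 and 36.7 in cortex (wild-type and SCA3).

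Atp5o encodes the oligomycin sensitivity protein, which joins the catalytic head of ATP synthase to its stalk. Its SCA3 striatal libraries had 99.0, 102.9, 105.6, 106.8 and 112.8 CPM. Wild-type libraries ran from 105.6 to 146.1 CPM with a median of 119.0, and the groups overlapped. The log2 fold change was -0.20 ± 0.07 (edgeR, FDR = 0.044). In brainstem, wild-type libraries had from 143.2 to 170.2 CPM and SCA3 libraries from 137 to 162.5, with a log2 fold change of -0.06 ± 0.06.

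**Figure D4:**
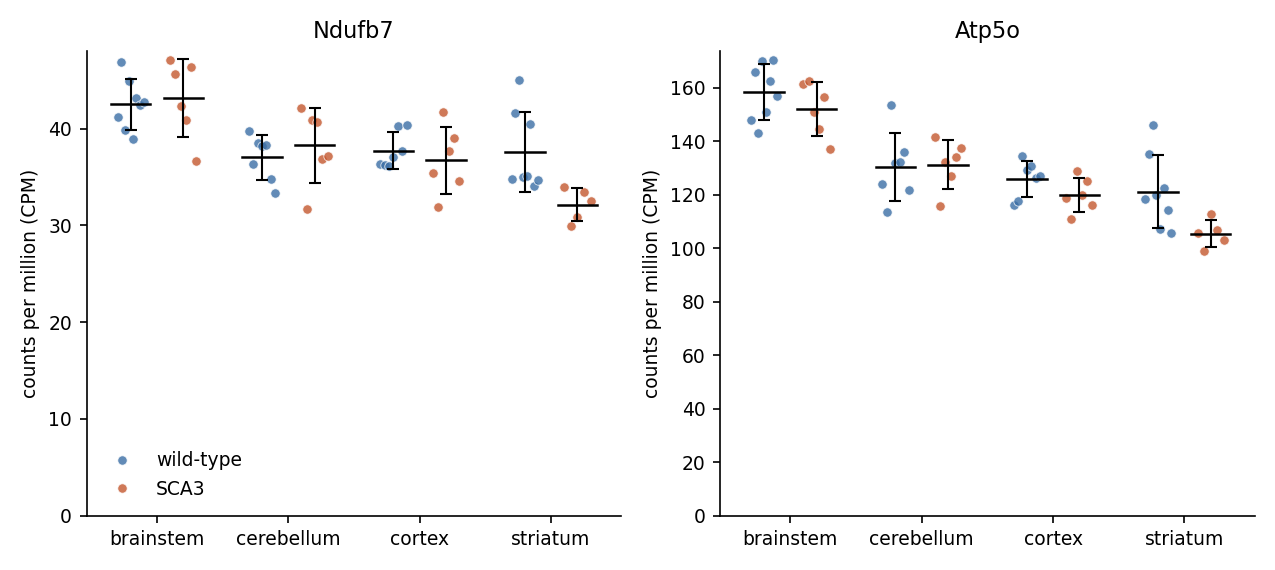
CPM of Ndufb7 and Atp5o in each library (points), by region and genotype, with group means (lines) and SD (bars); both axes start at 0. In striatum the SCA3 values of Ndufb7 (29.9 to 34.0) lie under all wild-type values, while those of Atp5o (99.0 to 112.8) overlap with them.

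Both striatal calls were near the threshold and were lost when single mice were left out. No gene of the 83 was called without wild-type mouse 7267058, 7267059 or 9083372 or without SCA3 mouse 7267056 or 9083515. Without mouse 7267054 neither Ndufb7 (FDR = 0.052) nor Atp5o (FDR = 0.11) was called, but Atp5e and Ndufa7 were. Ndufb7 was also lost without mouse 9082853 (FDR = 0.066) and Atp5o without mouse 7267055 (FDR = 0.052). There were 4 calls without mouse 9082857 or 9083375, 6 without mouse 9083371, and 1 (Ndufb7) without mouse 9083373, 9083514 or 9083513, the last of which has no striatal library but enters the shared fit. The wild-type libraries of mice 7267059 and 7267058 had the highest Ndufb7 values (45.0 and 41.6 CPM) and the highest thalamus markers (7.73 and 7.42 mean log2 CPM, where the other striatal libraries ran from 4.01 to 5.82). With the thalamus marker score as a covariate, Ndufb7 had a log2 fold change of -0.14 (FDR = 0.39) and Atp5o of -0.10 (FDR = 0.55), and no gene was called. Without the 5 libraries with high thalamus markers, of which those of mice 7267058 and 7267059 are striatal and the others brainstem, the values were -0.15 (FDR = 0.26) and -0.12 (FDR = 0.36). With the mouse as a replicate block in limma-voom, Ndufb7 had an FDR of 0.049 and Atp5o of 0.051, and without the block these were 0.047 and 0.054. With an offset for exon length and GC content neither was called (FDR = 0.077 and 0.066), while Atp5e, Atp5s, Ndufa11 and Uqcrh were.

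Across the whole set, striatal fold changes leaned to lower values in SCA3 mice. The fold change was below 0 for 72 of the 83 genes (86.7%), against 51.0% of all genes, with a median of -0.091 against -0.003. All 4 complex II, 9 complex III and 14 complex V genes were below 0, as were 33 of 41 complex I genes and 8 of 11 complex IV genes. The genes vary together between libraries, so these counts are not 83 separate observations. The mean log2 CPM over the 83 genes was 6.01 ± 0.04 in SCA3 striatum (5.95 to 6.05) and 6.08 ± 0.09 in wild-type striatum (5.99 to 6.27), a difference of -0.080, which was about the SD between libraries (0.071), and the groups overlapped. With the thalamus marker score as covariate the median was -0.035 with 59 genes below 0, and without the 5 libraries it was -0.043 with 63 below 0.

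**Figure D5:**
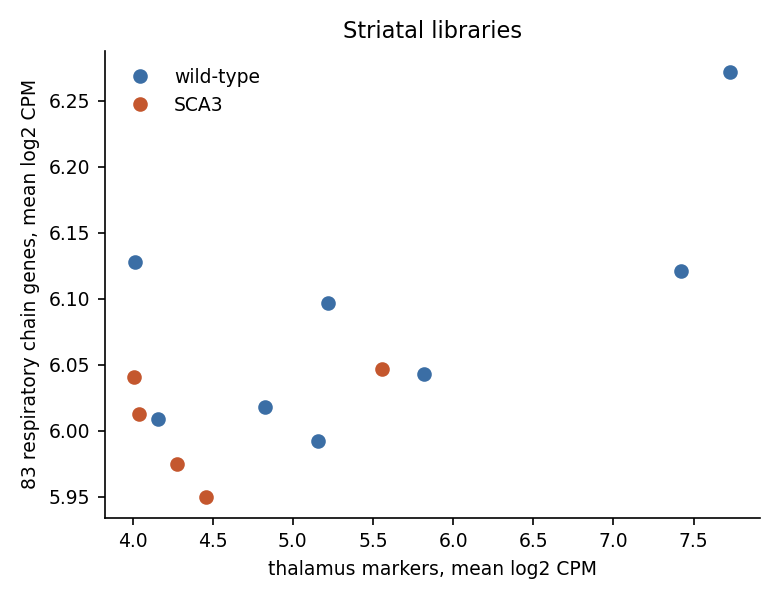
Mean log2 CPM over the 83 genes against the mean log2 CPM of 11 thalamus markers in the 13 striatal libraries. The wild-type library of mouse 7267059 has the highest value on both axes (7.73 and 6.27), and the SCA3 libraries lie between 5.95 and 6.05.

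Other markers moved with genotype in striatum as well. Striatal projection neuron markers had a mean log2 CPM of 8.71 ± 0.73 in wild-type striatum (7.60 to 9.68, summed 3048 to 12607 CPM) and 9.36 ± 0.28 in SCA3 striatum (9.04 to 9.63, summed 8033 to 11953 CPM). Oligodendrocyte markers had 8.5 ± 0.50 and 8.14 ± 0.26 and astrocyte markers 7.44 ± 0.26 and 7.10 ± 0.15. The mean RNA integrity numbers were 7.48 and 7.40. With this number as a covariate 3 genes were called (Atp5o, Ndufb7 and Uqcrh) and the median fold change was -0.091, whereas among libraries with a number of at least 7 no gene was called and the median was -0.088. The part of the projection neuron, oligodendrocyte and astrocyte markers in the striatal values was not tested.

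Among the striatal genes that did not pass the test, the accessory subunit Ndufa11 had a log2 fold change of -0.24 ± 0.08 (FDR = 0.054). Its SCA3 libraries had 41.0 to 46.0 CPM and its wild-type libraries 43.8 to 58.7. Ndufa8 had -0.14 ± 0.05 (FDR = 0.082), with 59.9 to 62.9 CPM in SCA3 and 61.9 to 71.9 in wild-type libraries. Ndufb8 and Atp5e had the values farthest from 0, both -0.25 ± 0.10 (FDR = 0.091 and 0.10). The central subunits had -0.06 ± 0.06 (Ndufs1), -0.14 ± 0.06 (Ndufv1), -0.10 ± 0.05 (Sdha), -0.12 ± 0.08 (Cyc1), -0.04 ± 0.07 (Uqcrfs1), -0.12 ± 0.09 (Cycs), -0.19 ± 0.08 (Cox4i1), -0.07 ± 0.05 (Atp5a1) and -0.06 ± 0.07 (Atp5b), with FDR from 0.11 to 0.80. On the positive side were Cox7c (0.14 ± 0.12), Ndufab1 (0.10 ± 0.13) and Ndufs4 (0.06 ± 0.06), with FDR from 0.49 to 0.69.

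In the brainstem, a region with neuron loss in SCA3 patients, the median log2 fold change was 0.018, and -0.052 to 0.044 over the alternative settings. The smallest p-value was that of Ndufa6, an accessory subunit of the complex I matrix arm. Its SCA3 libraries had 81.2 to 96.6 CPM (median 89.8) and its wild-type libraries 65.1 to 86.4 (median 79.7), the groups overlapped, and the log2 fold change was 0.19 ± 0.08 (edgeR, FDR = 0.26). This was the only gene of the 83 with an unadjusted p under 0.05 in edgeR, and the quasi-likelihood test, DESeq2 and limma-voom also called none. Atp5e was called with the length and GC correction and replicate block (-0.24), and Atp5e (-0.42) and Ndufb2 (-0.32) in the largest number series alone. Ndufb3 (0.11 ± 0.06), Ndufa8 (0.10 ± 0.05), Atp5e (-0.18 ± 0.09), Atp5s (-0.13 ± 0.07) and Ndufaf1 (-0.11 ± 0.07) had the next smallest p-values in their direction, with FDR from 0.40 to 0.47. Astrocyte markers had a mean log2 CPM of 7.64 ± 0.16 in SCA3 and 7.98 ± 0.23 in wild-type brainstem, and 3 of 10 were called lower, where 1.15% of all genes were. Oligodendrocyte markers had 8.71 ± 0.24 and 9.02 ± 0.32, with overlapping ranges and 1 of 10 called lower. Thalamus markers were above 6.3 (mean log2 CPM) in the libraries of wild-type mouse 7267055 (6.51) and SCA3 mice 9083514 (6.36) and 9083515 (6.46). RNA integrity numbers were higher in SCA3 brainstem (mean 7.78, 7.4 to 8.0) than in wild-type brainstem (mean 7.24, 6.3 to 7.6). With RNA integrity as a covariate no gene was called by edgeR (2 under an unadjusted p of 0.05), and the part of the cell type markers was not tested. The mean over the respiratory chain genes was 6.31 ± 0.07 and 6.29 ± 0.07.

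In the cerebellum the median was 0.026 (-0.006 to 0.053 over the alternative settings), with 1 gene under an unadjusted p of 0.05 and 0 called by edgeR, the quasi-likelihood test, DESeq2 or limma-voom. That gene was Uqcrfs1 (0.15 ± 0.07, edgeR FDR = 1.0), with 101.3 to 121.1 CPM in SCA3 and 84.4 to 111.4 CPM in wild-type libraries. Ndufb11 (0.10 ± 0.06), Ndufv3 (0.09 ± 0.05), Atp5e (-0.11 ± 0.10), Atp5s (-0.08 ± 0.07) and Ndufaf7 (-0.04 ± 0.04) had the next smallest p-values in their direction. Choroid plexus markers had a mean log2 CPM of 6.88 ± 0.52 in SCA3 and 4.67 ± 2.03 in wild-type cerebellum, with overlapping ranges, and their part in the cerebellar values was not tested. In the cortex the median was -0.007 (-0.046 to 0.015 over the alternative settings), with 0 genes under an unadjusted p of 0.05 and 0 called by the same tests. The largest value there was that of Ndufab1 (0.22 ± 0.13), and Ndufc2 (0.12 ± 0.07), Ndufa5 (0.08 ± 0.07), Atp5e (-0.19 ± 0.10), Ndufa2 (-0.14 ± 0.08) and Cox7a2l (-0.15 ± 0.09) had the smallest p-values in their direction, all with an FDR of 1.0.

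Tested over the 4 regions together, no gene of the 83 passed the joint test for a genotype effect (edgeR, smallest FDR 0.082 for Atp5e, 6 genes under an unadjusted p of 0.05), where 4.73% of all genes did. DESeq2, the quasi-likelihood test and limma-voom also called none. Atp5e passed this test with the length and GC offset (FDR = 0.00074), with that correction and the replicate block (0.021), among libraries with an RNA integrity number of at least 7 (0.045), in the largest number series of mice (4.2e-05) and without mouse 7267054 (0.0019) or 7267059 (0.050). In the largest series all wild-type mice were 75 weeks old and all SCA3 mice 74 weeks. Atp5e was below 0 in each region (-0.18, -0.11, -0.19 and -0.25 in brainstem, cerebellum, cortex and striatum). For the dependence of the genotype effect on region, 0 of 83 genes passed, with 2 under an unadjusted p of 0.05, where 0.218% of all genes passed. Ndufa8 (FDR = 0.30), Ndufb7 (FDR = 0.47) and Ndufa11 (FDR = 0.60) had the smallest values. This test asks for any difference of the genotype effect between regions, and striatum against the other regions was not tested by itself. The fold change was below 0 in all 4 regions for 14 genes (16.9%, against 12.2% of all genes) and above 0 in all 4 for 8 (9.64%, against 11.6%).

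None of the paralogs and isoforms in the set passed the test between genotypes in any region. Cox6b1, Cox7a2, Ndufa4 and Atp5g3 had striatal values of -0.11 ± 0.07, -0.12 ± 0.08, -0.09 ± 0.08 and -0.11 ± 0.07, and Atp5g1 of -0.17 ± 0.09. Cox6a1 and Cox8a had 0.00 ± 0.13 and 0.02 ± 0.14 in striatum, with SEs among the largest of the set.

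Genes of neighbouring mitochondrial pathways were examined as lists. In wild-type brainstem, 15 of 18 genes of the tricarboxylic acid cycle were higher than in the other regions and 1 lower (median log2 difference 0.236). Mitochondrial ribosomal proteins had 32 higher and 11 lower of 76 (median 0.067), other assembly factors 18 higher and 9 lower of 38 (0.084), glycolytic genes 7 higher and 3 lower of 16 (0.062), and import machinery 4 higher and 4 lower of 22 (0.055). Regulators of mitochondrial biogenesis went the other way, with 3 higher and 10 lower of 18 (-0.208). The background of 34.1% higher and 36.0% lower holds for these lists too.

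In SCA3 striatum, Cs, the citrate synthase of the tricarboxylic acid cycle, was lower, with 231.4 ± 11.8 CPM against 266.2 ± 27.9 in wild-type mice (log2 fold change -0.20 ± 0.06, FDR = 0.011). It was the called gene of the 18 (7.54% of all genes were called in striatum, 5.47% lower), of which 17 were below 0 (median -0.124). Among 38 assembly factors, Coa5, which acts in complex IV assembly, was higher (0.20 ± 0.06, FDR = 0.018; 128.8 ± 4.19 against 112.2 ± 12.2 CPM) and Foxred1, which acts in complex I assembly, was lower (-0.15 ± 0.05, FDR = 0.040; 36.6 ± 1.25 against 40.5 ± 2.74 CPM). Tomm70a, an outer membrane import receptor, was the 1 called gene of 22 of the import machinery and was higher (0.35 ± 0.11, FDR = 0.023; 499.4 ± 54.5 against 391.4 ± 102.5 CPM). No mitochondrial ribosomal protein (76 tested, 14 under an unadjusted p of 0.05, median -0.068) and no biogenesis regulator (18 tested, 4 under an unadjusted p of 0.05) was called by edgeR. Aldoc, the aldolase of astrocytes, was the 1 called glycolytic gene of 16 in both striatum (-0.37 ± 0.11, FDR = 0.016) and brainstem (-0.35 ± 0.10, FDR = 0.038). In striatum it had 594.5 ± 41.3 CPM in SCA3 and 769.3 ± 165.8 CPM in wild-type mice, and in brainstem 1204 ± 117.2 and 1535 ± 255.8 CPM. None of these striatal calls held with the thalamus marker score as a covariate, where log2 fold changes were -0.10 for Cs (FDR = 0.34), 0.13 for Coa5 (FDR = 0.29), -0.11 for Foxred1 (FDR = 0.25), 0.16 for Tomm70a (FDR = 0.40) and -0.19 for Aldoc (FDR = 0.29). Nor did they without the 5 libraries with high thalamus markers, where they were -0.13, 0.16, -0.13, 0.23 and -0.22 in the same order (FDR from 0.15 to 0.22). Wild-type values spread widely for Tomm70a (254.6 to 580.1 CPM) and overlapped with those of SCA3 mice (411.2 to 553.9). In brainstem Aldoc had -0.28 with the score (FDR = 0.016) and -0.31 without those libraries (FDR = 0.097). In cerebellum and cortex no gene of these lists was called by edgeR, with 0 to 2 genes per list under an unadjusted p of 0.05.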

How the data were processed

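Poly-A RNA of 53 dissected brain regions was sequenced without strand information. Per the submitters' processing notes and the study's methods, the authors trimmed reads with cutadapt 1.10, aligned them to GRCm38/mm10 with STAR 2.3.0e keeping unique alignments, and made the deposited counts with HTSeq 0.6.1 on RefSeq genes, unstranded. They dropped genes with a low mean CPM (the lowest in the table is 4.07) and tested with edgeR 3.14.0. No library columns were identical.

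Here the deposited counts of all 53 libraries were fitted together in edgeR 4.0.16 (R 4.3.3) with TMM factors, a term for each of the 8 region and genotype groups and the likelihood ratio test that the study used. p-values were adjusted over all 12372 genes (Benjamini-Hochberg), and FDR below 0.05 was called. Errors of fold changes are SEs of the fitted coefficients, and CPM are TMM-scaled. Exon lengths, coordinates and GC content came from a GRCm38 annotation. Scripts were tested on simulated data.

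The genes, pathway lists and marker lists were chosen with earlier results of these data known. Named were all members called for SCA3, the 3 with the smallest p in each direction per region and the 3 with the smallest p for dependence on region, the 3 largest called differences per direction for each wild-type region, 1 or 2 central members per complex, and paralogs (45 genes in all). Named list genes were the 2 with the smallest p in each direction among those called.

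The regions of a mouse share the animal, so the mouse number pairs libraries across regions but not across genotypes. After group means were removed, libraries of a mouse had mean correlations over genes of 0.0904 to 0.186 per pair of regions. The mouse as a replicate block was therefore an alternative (limma 3.58.1), beside DESeq2 1.42.0, the quasi-likelihood test, RLE size factors, filters, length and GC offsets, covariates (RIN, age, thalamus markers, number series) and leaving out each mouse. Within a region each library is a separate mouse. A number series is the mice whose numbers share their first 4 digits. In the largest (9083) the 4 wild-type mice were 75 weeks old and the 3 SCA3 mice 74 weeks. Age and genotype cannot be told apart within it.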

Additional observations from a re-analysis of the deposited data

Results flagged for a closer look

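In all, 64 combinations were examined for a library apart from the rest. Each was a group with a complex, with all 83 genes, or with Ndufb7 or Atp5o alone. Of these 2 were noted, where chance gives about 1 in 20. Both came from the wild-type striatal library of mouse 7267059. Its mean log2 CPM of complex III genes was 6.58, where the other 7 wild-type striatal libraries had 6.32 to 6.44, and that of complex V genes was 6.94, where the others had 6.62 to 6.77. In each the gap to the nearest library was 0.56 of the range of the group (critical value 0.526 for 8 libraries). The same library had the highest thalamus marker level of all striatal libraries (mean log2 CPM 7.73), and its part in these values was not tested.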

How the results depend on the processing

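Of 82 named single-gene values, 71 kept their direction in every alternative run. In SCA3 striatum, where 2 genes were called, DESeq2 called 5 (Atp5o, Ndufa11, Ndufa8, Ndufb7, Uqcrh), the number series of the mice as covariate 5, the length and GC offset 4 (neither Ndufb7 nor Atp5o among them), and limma-voom 1 (Ndufb7) with the mouse as replicate block and 1 without it. The striatal libraries alone, RIN of at least 7, the largest number series alone, the thalamus score as covariate, and leaving out the 5 libraries with high thalamus markers each gave 0, and leaving out a mouse gave 0 to 6. Length and GC correction with replicate block called 2 other genes there (Atp5e, Atp5s), 1 in brainstem (Atp5e), 1 in any region (Atp5e), and 48 and 12 genes for wild-type cerebellum and cortex against striatum, where 31 and 4 were called. Genes named here outside the stated rule were named after their values were seen. The cause of these shifts was not tested. The largest series alone gave 2 in SCA3 brainstem, 3 in any region, 12 for wild-type cortex against the others (32 before) and 13 for cortex against striatum. Any-region calls were also 1 with the length and GC offset, with RIN of at least 7, and 0 to 1 without a mouse. Cortex against striatum gave 8 with the length and GC offset, 1 with those libraries alone, 2 with RIN of at least 7, 10 without the 5 libraries and 1 to 8 without a mouse. Without a mouse, wild-type cortex against the others gave 18 to 32 and striatum 22 to 49 (37 before). From summed CPM, complex II was 0.308 higher in brainstem (0.230 before) and -0.156 in cortex (-0.107), and complex III was 0.190 higher in brainstem (0.125 before). The replicate block without that correction, also with the mouse as a fixed term, left every other count within 1.5 times. Not run were the thalamus score as covariate in wild-type comparisons and single-comparison libraries for the tests over all regions. Among named calls of wild-type brainstem, Cyc1 held in 22 of 29 alternatives, Cox7a2 in 25, and Cycs, Ndufa4 and Uqcrfs1 in 27, and Atp5l in wild-type cortex held in 25.

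Single-gene values that changed sign were all uncalled. In SCA3 striatum, the largest number series alone turned Atp5a1 to 0.02, Atp5b to 0.05, Cox6a1 to 0.01, Cox8a to -0.06, Ndufa4 to 0.06, Ndufab1 to -0.15 and Ndufs1 to 0.02, and in SCA3 cortex Ndufa5 to -0.04. The thalamus score turned Atp5b to 0.04, Cox8a to -0.07, Cycs to 0.03, Ndufa4 to 0.01, Ndufs1 to 0.02 and Uqcrfs1 to 0.01. Leaving out the 5 libraries turned Atp5b to 0.03, Cox6a1 to 0.01, Cox8a to -0.03 and Ndufs1 to 0.00, and RIN of at least 7 turned Cox8a to -0.18 and Ndufab1 to -0.07. Striatal Cox6a1, at 0.00, was 0.02 with RIN as covariate, 0.01 with age, 0.01 with the number series, 0.02 with the length and GC offset (0.04 with replicate block) and 0.03 and 0.02 in limma-voom with and without the replicate block. In wild-type brainstem Cox6a1 was 0.03 with RIN as covariate, 0.00 and 0.01 with the length and GC offset without and with replicate block, 0.00 in the largest series and 0.01 without the 5 libraries. Leaving out a mouse gave -0.08 to 0.01 for Atp5b, -0.07 to 0.04 for Cox6a1 and -0.06 to 0.06 for Cox8a in SCA3 striatum, and -0.07 to 0.00 for Cox6a1 in wild-type brainstem. The alternatives with 5 libraries left out and with the number series were chosen after seeing the data.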
